A study of Mus musculus with 9 samples.

Results

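The genes described here are the receptor tyrosine kinase gene Kit and 9 genes of cytokine signaling through JAK kinases and STAT factors, namely Jak2, Stat3, Stat5a, Stat5b, Socs2, Socs3, Cish, Sh2b3 and Cbl. They were chosen by symbol, through the mouse gene identifiers of the raw count table, and the rule itself uses no measured value. Earlier results of these data were known when the genes were chosen. All 10 were found, each with 1 identifier among the 47643 genes of the table, and all 10 were among the 18205 genes with enough counts to be tested. RNA was sequenced from long-term hematopoietic stem cells (LT-HSCs), sorted as donor-derived Lin-cKit+Sca1+Flk2-CD48-CD150+ cells from the bone marrow of transplanted mice. The study asked how these cells change when class IA PI3K, the lipid kinase family downstream of KIT and other receptors, is lost.

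Donor bone marrow on a C57BL/6 background was of 3 genotypes, with 3 libraries each. TKO cells carried Pik3ca lox/lox and Pik3cb lox/lox alleles, the Pik3cd-/- deletion and the Mx1-Cre transgene, so that p110δ was missing from the germline and p110α and p110β were excised on induction. δKO cells carried the same floxed alleles and the Pik3cd-/- deletion but no Cre, and served as littermate controls. WT cells carried Mx1-Cre alone. Lethally irradiated B6.SJL recipients aged 6 to 8 weeks received this marrow, and all groups were then given 2 injections of 250 μg pIpC at 48 hours distance, which induce the interferon-responsive Mx1 promoter. Cells were taken 4 weeks after pIpC. Since δKO cells had no Cre, Cre and the loss of p110α and p110β cannot be told apart in TKO against δKO, whereas TKO against WT compares cells that both carried Cre. The protocol states that marrow of the 7 recipients of a group was pooled, yet the Xist level, a transcript of female cells, differed at least 107-fold between libraries of each genotype, so the libraries are not equal parts of 1 pool. No source names separate animals for the libraries, and p-values measure the spread between these libraries, which may in part be technical.

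KIT is the receptor of stem cell factor, which hematopoietic stem cells need for their maintenance, and it is also one of the surface proteins on which the cells were sorted. Cytokine receptors without a kinase of their own use kinases such as JAK2, which phosphorylates STAT proteins that then enter the nucleus and switch on genes. Among those genes are Cish, Socs2 and Socs3, whose products feed back on the receptors, so that their transcripts are commonly read as a trace of recent STAT activity. SH2B3 (also called LNK) restrains JAK2 and KIT in stem cells, and CBL is a ubiquitin ligase that removes activated receptors, KIT among them.

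The promoters of 2 of the 3 inducible inhibitors are shown because they hold the letters TTCNNNGAA, the classical motif of STAT factors, and because the transcripts of these genes varied most. RefSeq windows of build GRCm38.p6, from 250 bases before to 50 bases after a transcription start, were found for 9 of the 10 genes, in 12 windows in all. No window was matched for Socs2. The motif reads the same on both strands, and each match is in capitals.
Cish, chr9:107296409-107296708, plus strand: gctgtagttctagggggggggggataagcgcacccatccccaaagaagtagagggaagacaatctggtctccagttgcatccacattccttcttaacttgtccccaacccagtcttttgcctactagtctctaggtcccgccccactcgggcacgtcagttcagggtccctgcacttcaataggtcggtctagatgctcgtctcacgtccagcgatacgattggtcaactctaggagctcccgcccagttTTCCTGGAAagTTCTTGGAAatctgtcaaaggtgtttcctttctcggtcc
Socs3, chr11:117969317-117969616, minus strand: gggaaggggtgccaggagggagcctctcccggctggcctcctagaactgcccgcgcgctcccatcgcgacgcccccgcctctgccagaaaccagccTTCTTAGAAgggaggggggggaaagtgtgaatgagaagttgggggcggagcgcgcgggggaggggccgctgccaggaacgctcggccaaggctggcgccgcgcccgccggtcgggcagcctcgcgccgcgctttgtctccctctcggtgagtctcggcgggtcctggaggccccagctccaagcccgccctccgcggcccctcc
The Cish window held 2 matches, TTCCTGGAA at bases 1 to 9 and TTCTTGGAA at bases 12 to 20 counted from the start. The Socs3 window held TTCTTAGAA from 154 to 146 bases before the start. The motif was found in no window of Kit, Jak2, Stat3, Stat5a, Stat5b, Sh2b3 or Cbl. Of 32851 mouse promoter windows of the same length, 8.3% held at least 1 match and 0.457% held 2 or more. A match describes these letters and does not show that a factor was bound.

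Each library held 31300343 to 60386097 gene counts, and 18180 to 22703 genes had at least 1 count. Libraries of the same genotype differed far beyond counting error, with a chi-square per gene of 128 to 533 where counting alone gives 1, so none was counted as a duplicate file of another. This does not show that they are separate biological samples. Levels are given in CPM, counts relative to library size scaled with edgeR's TMM factors, and differences as log2 fold changes (log2FC) with their standard error (SE). One δKO library has a number in the count table that no label has, and is called the unnumbered δKO library. Pik3cb, excised in TKO, was measured at 25.5 to 33.9 CPM in TKO, 44.6 to 63.6 CPM in WT and 101, 33.2 and 68.8 CPM in δKO replicates 1 and 2 and the unnumbered δKO library, of which replicate 2 lay within the TKO range, and Pik3cd, deleted in δKO and TKO, at 38.5 to 91.2 CPM in δKO, 71.2 to 73.5 CPM in TKO and 98.2 to 139 CPM in WT. Pik3ca was measured at 45.8 to 65.0 CPM in WT and 52.8 to 68.0 CPM in TKO, and counts over whole genes do not show the loss of single exons. δKO replicate 1 stood apart, with the fewest genes detected and log2 correlations of 0.835 to 0.887 with the other libraries, and values without it are given for the members and for the pathway genes named against δKO.

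As a check of the cell type, Cd3e, Cd3g and Cd8a of T cells were at 0 in all 9 libraries, and Ms4a1 of B cells did not exceed 0.0178 CPM. Other genes of these lists were detected. The 8 T and NK cell genes summed to 83.5 to 237 CPM in WT, 55.4 to 195 CPM in δKO and 34.6 to 75.0 CPM in TKO, with Nkg7 the highest of them except in δKO replicate 1, where Lck was at 51.4 CPM, and Cd3d reached 8.17 CPM in TKO replicate 1. The 8 B cell genes summed to 4.68 to 12.4 CPM, with Cd79b at 4.13 to 11.3 CPM. The part of such cells in the members' values was not tested. Hematopoietic stem cell genes were present, with 12 marker genes summing to 1005 to 1339 CPM in WT, 1112 to 2440 CPM in δKO and 1710 to 1998 CPM in TKO. Neutrophil precursor genes were present too. A list of 10 such genes, led by Mpo and Elane, summed to 5254 to 12283 CPM in WT, to 280.1, 4725 and 12124 CPM in δKO and to 169, 3239 and 928 CPM in TKO replicates 1 to 3. All 3 TKO libraries were thus below all 3 WT libraries for neutrophil genes and above them for stem cell genes. In bulk samples, fewer cells of a type and less RNA per cell cannot be told apart.

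On a scale that allows genes to be compared, CPM per kilobase of exon, Kit had the highest level of the 10 genes in all 3 genotypes. In WT cells Kit was at 54.7 CPM per kilobase (SD 1.68, n = 3), and every WT library had more Kit than of any other member. Cbl (30.2) and Stat3 (29.2) came next and did not differ beyond the spread of the libraries. Jak2 (20.2), Stat5b (17.7), Socs3 (16.0), Stat5a (10.5) and Sh2b3 (9.63) followed, each overlapping with its neighbor in this order. Socs2 (1.93) and Cish (1.02) were lowest and overlapped with each other, but neither overlapped with Sh2b3. In TKO cells Socs3 ranked next after Kit at 33.0 CPM per kilobase (SD 9.02, n = 3), overlapping with Stat3 at 28.3, whereas Socs2 (6.75) and Cish (4.00) remained the lowest.

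**Figure D1:**
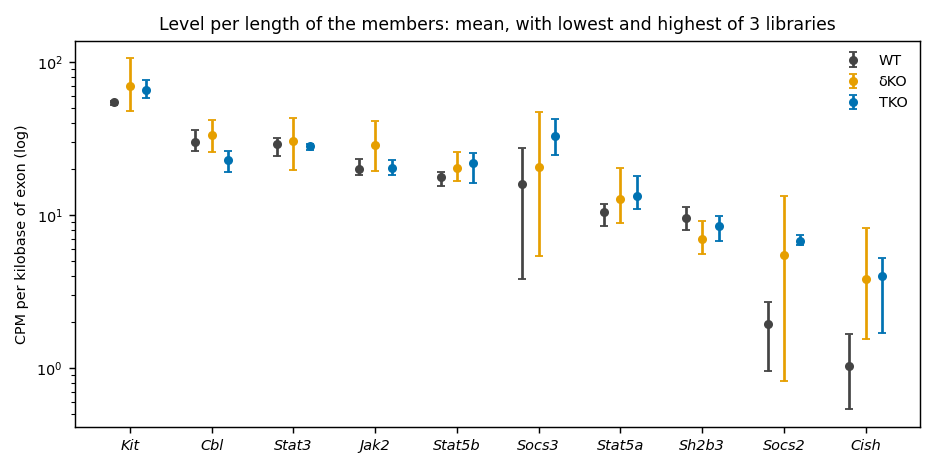
Level of the 10 genes per kilobase of exon, on a log axis, as the mean of 3 libraries (points) with the lowest and highest library (bars) for WT, δKO and TKO. Kit was highest in each genotype, and Socs2 and Cish were lowest, at 1.93 and 1.02 CPM per kilobase in WT and 6.75 and 4.00 in TKO.

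The 10 genes fell into groups of very different spread. For Socs2, Socs3 and Cish the highest of the 9 libraries exceeded the lowest 16.5-fold, 12.3-fold and 15.4-fold, whereas for the other 7 genes this ratio was 1.69 to 2.39. The biological coefficient of variation, the relative spread within genotypes estimated by edgeR, was 0.635 to 0.644 for the 3 inducible inhibitors and 0.261 to 0.347 for the others, against a median of 0.677 over all tested genes. A difference of a given fold is therefore easier to see for the receptor, the kinase and the STAT genes than for the inhibitors. The inhibitors also shared the order of their highest libraries, with δKO replicate 1 first, then TKO replicate 2 and then TKO replicate 3 in each of them. The 9 libraries differ in genotype, depth and cell makeup, so this common order is given as a description.

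**Figure D2:**
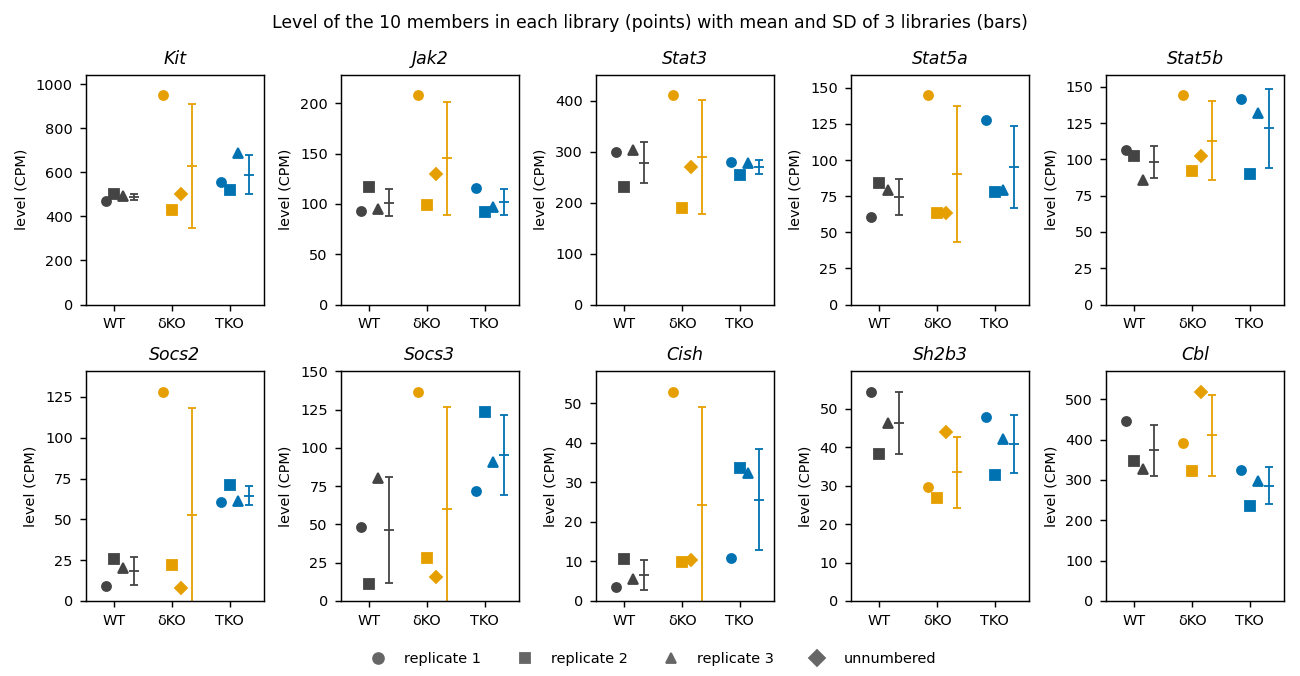
Level of each gene in CPM in the 9 libraries (points, with shapes for replicates), with the mean and SD of the 3 libraries of each genotype (bars) and every axis starting at 0, where it also cuts off the lower SD bar of δKO in Socs2, Socs3 and Cish. All 3 TKO libraries lie above all 3 WT libraries for Kit, Socs2 and Cish and below them for Cbl, and δKO replicate 1 is the highest library for 8 of the 10 genes.

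Kit (ENSMUSG00000005672.12) lies on chromosome 5 of mm10 from 75574916 to 75656722 on the plus strand. It was measured at 471, 499.5 and 492 CPM in WT replicates 1 to 3, at 949, 429 and 502 CPM in δKO replicates 1 and 2 and the unnumbered δKO library, and at 556, 522 and 689 CPM in TKO replicates 1 to 3. The 3 WT libraries were close together and all below the 3 TKO libraries, while the δKO libraries lay on both sides of them. Mean levels were 488 ± 14.97 CPM in WT, 627 ± 281 CPM in δKO and 589 ± 88.3 CPM in TKO (SD, n = 3). The log2FC of Kit was 0.27 in TKO against WT (SE 0.285), 0.36 in δKO against WT (SE 0.286) and −0.09 in TKO against δKO (SE 0.285). None of these was called by the quasi-likelihood (QL) test of edgeR, adjusted after Benjamini and Hochberg over all tested genes (adjusted p = 1.00, 0.794 and 0.938). Since cKit+ cells were sorted, the presence of the transcript follows from the design, and only its level was compared.

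Jak2 (ENSMUSG00000024789.12), the kinase bound to the erythropoietin receptor among others, lies on chromosome 19 from 29251828 to 29313080 on the plus strand. WT libraries had 92.6, 117 and 94.7 CPM, δKO libraries 208, 98.6 and 129.7 CPM and TKO libraries 116, 92.2 and 97.0 CPM. WT and TKO libraries covered the same range, with means of 101 ± 13.5 and 102 ± 12.8 CPM (SD, n = 3) and a log2FC of 0.01 (SE 0.290). In δKO the mean was 145 ± 56.4 CPM (SD, n = 3), and the log2FC was 0.52 for δKO against WT (SE 0.291) and −0.51 for TKO against δKO (SE 0.291), neither of them called (adjusted p = 0.717 and 0.559, edgeR's QL test). The level of Jak2 relative to Kit, both per kilobase, was 0.341 to 0.415 in WT, 0.388 to 0.458 in δKO and 0.249 to 0.370 in TKO. These ratios did not overlap between TKO and δKO, where an exact two-sided permutation test gave p = 0.1, the smallest that 3 libraries against 3 can give, and they overlapped between TKO and WT.

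The STAT genes showed no called difference in any comparison. Stat3 (ENSMUSG00000004040.16, chromosome 11 from 100885098 to 100939540, minus strand), used by the receptors of interleukin 6 and G-CSF, was measured at 299, 231 and 303 CPM in WT, 410.1, 189 and 269.7 CPM in δKO and 279, 254 and 277 CPM in TKO. The TKO libraries lay within the range of the WT libraries, and the log2FC was −0.04 in TKO against WT (SE 0.275). Stat5a (ENSMUSG00000004043.14, chromosome 11 from 100859351 to 100885169, plus strand) and Stat5b (ENSMUSG00000020919.11, chromosome 11 from 100780731 to 100850724, minus strand) are neighboring genes for near-identical factors that act behind many cytokine receptors. Stat5a was measured at 60.7, 84.4 and 79.0 CPM in WT, 145, 63.1 and 63.4 CPM in δKO and 128, 78.1 and 79.5 CPM in TKO. Stat5b was measured at 106, 103 and 85.5 CPM in WT, 144, 92.2 and 102 CPM in δKO and 142, 89.9 and 132 CPM in TKO. In both genes δKO replicate 1 and TKO replicate 1 were the highest libraries and the genotypes overlapped. The log2FC in TKO against WT was 0.35 for Stat5a (SE 0.364) and 0.31 for Stat5b (SE 0.270), with an adjusted p of 1.00 for each from edgeR's QL test.

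How reads that match both Stat5a and Stat5b were counted was not examined, and the sum of the 2 genes is given as well. It was 164.5 to 187 CPM in WT, 155 to 289 CPM in δKO and 168 to 269.5 CPM in TKO, with means of 173 ± 12.3, 203 ± 74.2 and 216 ± 50.9 CPM (SD, n = 3). The sum did not separate TKO from WT, where the exact two-sided permutation test gave p = 0.2. Per kilobase, Stat5b exceeded Stat5a 1.28-fold to 2.26-fold in the 9 libraries, and this ratio overlapped between all genotypes. Stat3 and Stat5a share 72 exonic bases on opposite strands, where reads of the 2 genes cannot be told apart if strand was not used in counting.

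The inducible inhibitors were the members with the largest fitted differences between TKO and WT. Socs2 (ENSMUSG00000020027.18, chromosome 10 from 95385362 to 95417180, minus strand), whose product restrains growth hormone and other STAT5 receptors, was measured at 9.15, 25.8 and 20.3 CPM in WT, 128, 22.0 and 7.78 CPM in δKO and 60.6, 71.1 and 61.3 CPM in TKO. The TKO libraries were close together and all above WT, whereas the δKO libraries spanned a range wider than that of both other genotypes. These levels rest on 545 to 1359 counts in WT, 211 to 3211 counts in δKO and 2447 to 3171 counts in TKO. Means were 18.4 ± 8.47, 52.6 ± 65.8 and 64.4 ± 5.87 CPM (SD, n = 3), so that the mean of TKO was 3.49 times that of WT. The log2FC was 1.80 in TKO against WT (SE 0.788, unadjusted p = 0.0417), which was not called in edgeR's QL test (adjusted p = 1.00).

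Cish (ENSMUSG00000032578.7, chromosome 9 from 107296026 to 107302784, plus strand), an early target of STAT5, was measured at 3.44, 10.7 and 5.59 CPM in WT, 52.9, 9.90 and 10.3 CPM in δKO and 10.9, 33.6 and 32.5 CPM in TKO. The lowest TKO library, replicate 1, was just above the highest WT library, replicate 2, and δKO replicate 1 was above all others. Counts were 205 to 563 in WT, 280 to 1327 in δKO and 568 to 1534 in TKO. Mean levels were 6.57 ± 3.72, 24.4 ± 24.7 and 25.7 ± 12.8 CPM (SD, n = 3), with the mean of TKO at 3.91 times that of WT. Its log2FC in TKO against WT was 1.97 (SE 0.759, unadjusted p = 0.0243), which edgeR's QL test did not call either (adjusted p = 1.00). Cish shares exonic bases with 2 genes of the other strand, of which Gm17041 had 0 counts in all libraries and Gm17040 had 23 counts in WT replicate 3 and 0 in the others.

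Socs3 (ENSMUSG00000053113.3, chromosome 11 from 117966079 to 117970047, minus strand), the inhibitor of the receptors of interleukin 6 and G-CSF, was measured at 48.1, 11.1 and 80.0 CPM in WT, 137, 28.3 and 15.6 CPM in δKO and 71.6, 123 and 91.1 CPM in TKO. WT and TKO overlapped, since WT replicate 3 exceeded TKO replicate 1. The log2FC in TKO against WT was 1.04 (SE 0.770, adjusted p = 1.00, edgeR's QL test). The summed level of Socs2, Socs3 and Cish was 47.6 to 106 CPM in WT and 143 to 228 CPM in TKO, and these sums did not overlap (exact two-sided permutation test p = 0.1, the smallest possible). In δKO the sum was 318, 60.1 and 33.7 CPM, so that it overlapped with both.

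**Figure D3:**
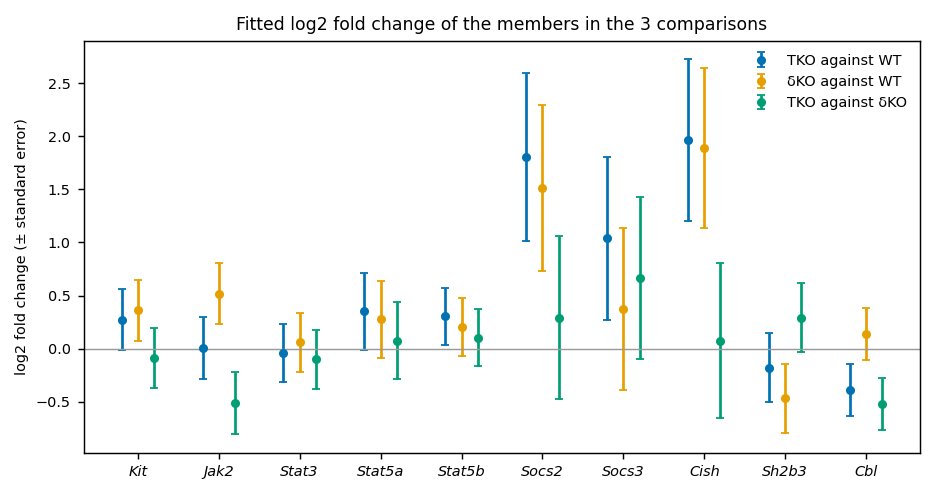
Log2FC of each gene (points) with its standard error (bars) in TKO against WT, δKO against WT and TKO against δKO, from edgeR's QL model of all 9 libraries. Socs2 and Cish lie at 1.80 and 1.97 in TKO against WT and at 0.29 and 0.07 in TKO against δKO, with bars more than 2 times as long as those of Kit.

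Of the constitutive inhibitors, Sh2b3 (ENSMUSG00000042594.16, chromosome 5 from 121815488 to 121837646, minus strand) was measured at 54.4, 38.3 and 46.2 CPM in WT, 29.6, 26.7 and 43.9 CPM in δKO and 47.8, 32.8 and 42.1 CPM in TKO. The genotypes overlapped, and the log2FC was −0.18 in TKO against WT (SE 0.325) and −0.47 in δKO against WT (SE 0.326), neither of them called. Sh2b3 shares 99 exonic bases with Atxn2 on the other strand, a gene with 2207 to 7588 counts per library. Cbl (ENSMUSG00000034342.9, chromosome 9 from 44142976 to 44234049, minus strand) was measured at 446, 347 and 327 CPM in WT, 392, 321 and 518 CPM in δKO and 324, 235 and 297 CPM in TKO. Every TKO library was below every WT library, although TKO replicate 1 was close to WT replicate 3. The log2FC of Cbl was −0.39 in TKO against WT (SE 0.245, adjusted p = 1.00) and −0.52 in TKO against δKO (SE 0.246, adjusted p = 0.490), which edgeR's QL test did not call.

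Counted together for TKO against WT, 0 of the 10 members were called by edgeR's QL test (adjusted p under 0.05 together with a change of over 2-fold), where 0.00549% of all tested genes were. At an unadjusted p under 0.05, Socs2 and Cish were higher in TKO, 2 of 10 members against 1.68% of all genes, and 0 were lower against 2.50%. Kit, Socs2 and Cish did not overlap and were higher in TKO, 3 of 10 against 6.88% of all genes, and Cbl alone was lower without overlap, 1 of 10 against 7.47%. The median log2FC of the members was 0.29, and that of all tested genes was 0.017. The members were chosen with earlier results of these data known, so these shares are a description and not a test. DESeq2's Wald test on the WT and TKO libraries alone, which leaves out the spread among δKO libraries, called Socs2 (log2FC 1.82, adjusted p = 0.000646) and Cish (1.98, adjusted p = 0.0190) and none of the other members, where it called 3.08% of genes. With all 9 libraries in the model DESeq2 called neither of them (adjusted p = 0.569 and 0.350). With DESeq2, the call of these genes thus depended on whether the δKO libraries entered the estimate of the spread. edgeR's QL test on the WT and TKO libraries alone did not call them (adjusted p = 0.187 and 0.297).

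In δKO against WT, which compares loss of p110δ alone with a Cre-carrying control, no member was called by edgeR either, as for 0.00549% of all genes. Cish was the only member with an unadjusted p under 0.05, at a log2FC of 1.89 (SE 0.758, unadjusted p = 0.0287, adjusted p = 0.699 from edgeR's QL test), so 1 of 10 members was higher by this measure against 3.65% of all genes and 0 were lower against 3.36%. Socs2 followed at 1.51 (SE 0.782). No member separated δKO from WT, whereas 4.13% of all genes did so upward and 7.39% downward, and DESeq2 on these groups called 0 members against 1.00% of genes. These fitted values rested largely on δKO replicate 1, since the other δKO libraries had 9.90 and 10.3 CPM of Cish, above 2 of the 3 WT libraries, and 22.0 and 7.78 CPM of Socs2. Without replicate 1 the value of Cish was 0.62 and that of Socs2 −0.30.

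In TKO against δKO, the comparison with littermates, 0 members and 0% of all genes were called by edgeR's QL test. At an unadjusted p under 0.05, 0 members were higher against 4.60% of all genes and 0 were lower against 5.56%. No member was free of overlap, against 6.98% of genes higher and 4.74% lower in TKO, and DESeq2 on these groups called 0 members against 1.52%. Cbl (−0.52) and Jak2 (−0.51) had the largest fitted differences in size after Socs3 (0.66, SE 0.765). Without δKO replicate 1, Jak2 was at −0.17 (SE 0.242, unadjusted p = 0.502 in edgeR's QL test) and Cbl at −0.56 (SE 0.263), and in δKO against WT Jak2 went from 0.52 to 0.17. The 3 comparisons share libraries, and the value in one is fixed by the values in the others.

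δKO replicate 1 was the highest of the 9 libraries for 8 of the 10 members, all but Sh2b3 and Cbl, whereas it was the highest for 23.7% and the lowest for 29.0% of all tested genes. It exceeded the mean of the other δKO libraries 8.62-fold for Socs2, 6.22-fold for Socs3, 5.24-fold for Cish and 2.04-fold for Kit. Without this library, the log2FC in TKO against δKO went from 0.29 to 2.11 for Socs2 (SE 0.528, unadjusted p = 0.00200, adjusted p = 0.241 from edgeR's QL test), from 0.66 to 2.11 for Socs3 (SE 0.654, unadjusted p = 0.00771, adjusted p = 0.299), from 0.07 to 1.34 for Cish (SE 0.632, adjusted p = 0.424) and from −0.09 to 0.34 for Kit (SE 0.213, adjusted p = 0.534). In δKO against WT it went from 1.51 to −0.30 for Socs2, from 0.37 to −1.08 for Socs3, from 1.89 to 0.62 for Cish and from 0.36 to −0.07 for Kit. Of the STAT genes, Stat3 was then at 0.23, Stat5a at 0.59 and Stat5b at 0.31 in TKO against δKO, and at −0.28, −0.24 and −0.01 in δKO against WT, none with an unadjusted p under 0.05. Sh2b3 was at 0.21 and −0.39 in these comparisons. The values in TKO against WT hardly moved, at 1.80 for Socs2 and 1.96 for Cish, and their unadjusted p fell to 0.00190 and 0.00468 (adjusted p = 0.403 and 0.433). The place of δKO relative to WT and TKO thus depended on 1 library for these genes. Leaving out WT replicate 1 took the values in TKO against WT to 1.48 for Socs2 and 1.65 for Cish, the lowest of all single omissions. The unadjusted p of these values was under 0.05 in 4 of the 9 single omissions for Socs2 and in 5 of the 9 for Cish, so that the count of 2 members by this measure depended on single libraries.

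**Figure D4:**
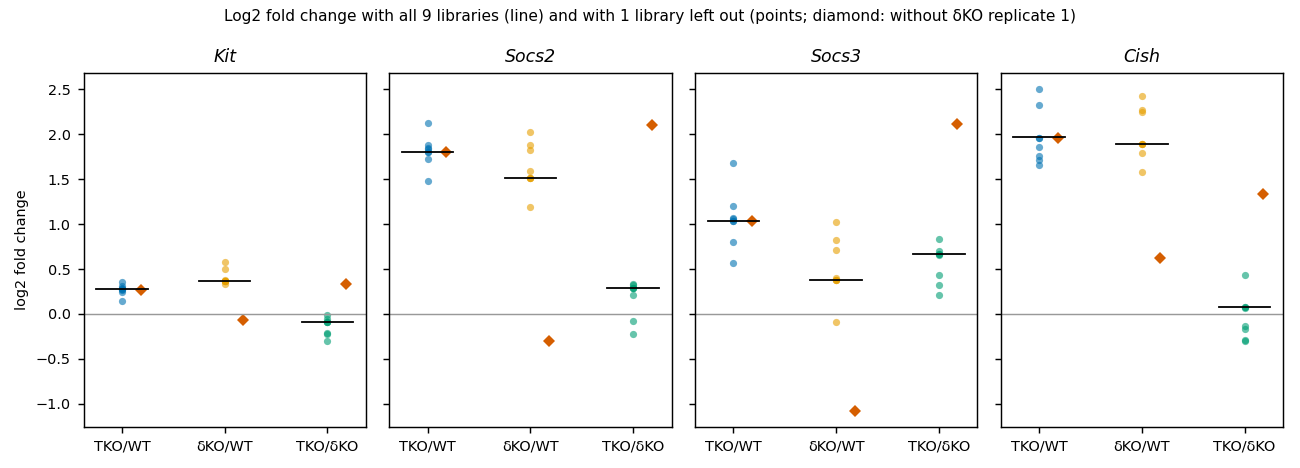
Log2FC of Kit, Socs2, Socs3 and Cish in the 3 comparisons, with all 9 libraries (black line) and with each library left out in turn (points), the omission of δKO replicate 1 being the diamond. In TKO against WT every point lies above 0, and in TKO against δKO the diamonds of Socs2 and Socs3 lie at 2.11, away from the other points.

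The libraries with the lowest neutrophil sums had the highest Socs2 and Cish, but this order did not hold within TKO. Socs2 was at 60.6 to 128 CPM in the 4 libraries in which the neutrophil list summed to at most 3239 CPM, namely δKO replicate 1 and the 3 TKO libraries, and at 7.78 to 25.8 CPM in the 5 libraries in which it summed to 4725 CPM or more. Cish was at 10.9 to 52.9 CPM in the former and 3.44 to 10.7 CPM in the latter, and Socs3 overlapped between them. Within TKO, replicate 1, with the lowest neutrophil sum (169 CPM), had the least Socs2 (60.6 CPM) and Cish (10.9 CPM), and replicate 2, with the highest sum (3239 CPM), had the most (71.1 and 33.6 CPM). In TKO against WT, 10 of the 10 neutrophil genes had negative log2FC values. Of these, 6 had an unadjusted p under 0.05 against 2.50% of all genes, and 3 were without overlap between the groups against 7.47%. Of the 12 stem cell genes, 12 had positive values, 2 with an unadjusted p under 0.05 against 1.68% of all genes and 8 without overlap against 6.88%. DESeq2 on these groups called 0 neutrophil genes and 2 stem cell genes, where it called 3.08% of all genes. Of the other lists, 5 of 8 monocyte and macrophage genes were negative in TKO against WT (median −0.997), led by Fcgr3 (−2.67), and 4 of 6 mast cell and basophil genes (median −2.26), led by Mcpt8 (−5.08), whereas 6 of 7 erythroid genes were positive (median 0.93). Fcgr3 and Mcpt8 were lower without overlap, not called by edgeR's QL test (adjusted p = 1.00 for each), and called by DESeq2 on these groups (adjusted p = 0.0117 and 6.54e-07). The summed levels of these 3 lists overlapped between TKO and WT. The sums of the T and NK cell genes given above did not. Nkg7, the gene of that list with the highest level in every WT and TKO library, was lower without overlap at −1.83. It was called by DESeq2 on these groups (adjusted p = 0.0329) but not by edgeR. Of the 4 tested genes of that list, 3 were positive in TKO against WT (median 0.68). The part of cell makeup in the differences of Socs2, Cish and the pathway genes named below was not tested. Immediate early genes such as Egr1 and Jun, which are known to rise when cells are handled, summed to 10565 to 19729 CPM in WT, 8961 to 17687 CPM in δKO and 9296 to 17225 CPM in TKO, and these ranges overlapped. Of the 14 genes, 13 had negative log2FC values in TKO against WT (median −0.31), 12 in TKO against δKO (median −0.23) and 11 in δKO against WT (median −0.16), with an unadjusted p under 0.05 for 0, 1 and 0 of them. Their part in the members' values was not tested.

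**Figure D5:**
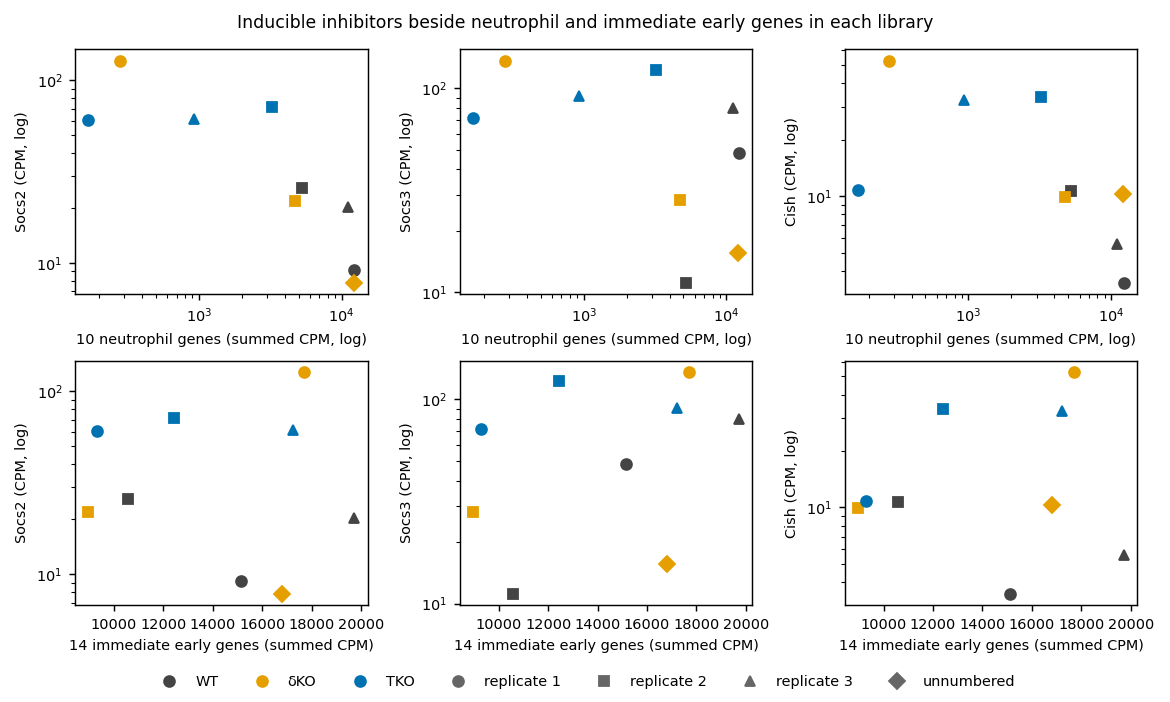
Level of Socs2, Socs3 and Cish in each library in CPM on a log axis against the summed level of 10 neutrophil genes (top, log axis) and of 14 immediate early genes (bottom, linear axis), colored by genotype. Socs2 is at 60.6 CPM or more in the 4 libraries with the lowest neutrophil sums and at 25.8 CPM or less in the other 5.

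Receptors and ligands of the pathway were counted next. Of 28 cytokine receptor genes, 24 were tested in TKO against WT, with 9 positive and 15 negative log2FC values, a median of −0.22 and 0 calls by edgeR. Csf3r, the G-CSF receptor, was the only one with an unadjusted p under 0.05, at a log2FC of −1.03 (SE 0.360, unadjusted p = 0.0146, adjusted p = 1.00, edgeR's QL test). It was measured at 266, 155 and 198 CPM in WT, 205, 175 and 262 CPM in δKO and 50.9, 142 and 109.6 CPM in TKO, so that TKO lay below both controls without overlap. Ifngr1 and Csf2ra had fitted values of −1.61 and −1.17 and were likewise below WT in every TKO library. Thus 3 of the 24 receptors were lower without overlap, against 7.47% of all genes, and 0 were higher, against 6.88%. These 3 receptors are also expressed by neutrophil precursors, whose list summed lower in TKO as described above, and its part in their values was not tested. In TKO against δKO, Csf3r (−1.08), Il3ra (−1.79) and Csf2rb2 (2.34) had an unadjusted p under 0.05 and no overlap, and none was called by edgeR. DESeq2 on all 9 libraries called Il3ra. At this unadjusted p, 1 of 24 receptors was higher and 2 were lower, against 4.60% and 5.56% of all genes. Without overlap, 3 were higher and 2 lower, against 6.98% and 4.74%. Without δKO replicate 1, Csf3r, Il3ra and Csf2rb2 were at −1.12, −1.93 and 1.79. Of 11 ligand genes in the table, 3 had enough counts to be tested, and Kitl, which encodes stem cell factor, had at most 6 counts in a library. Il7 (2.04), Csf1 (−0.86) and Lif (0.18) were not called in TKO against WT.

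Among the other JAK and STAT genes, 4 of 7 had positive log2FC values in TKO against WT with a median of 0.0085, and 0 had an unadjusted p under 0.05. Without overlap, 3 of the 7 were higher and 0 lower, against 6.88% and 7.47% of all genes. Jak1, the partner kinase of many cytokine receptors, was measured at 212, 244 and 287 CPM in WT and 336, 371 and 308 CPM in TKO, which did not overlap, with a log2FC of 0.45 (SE 0.232). Tyk2 (−0.51) and Stat6 (−0.47) followed and overlapped. Of 20 other inhibitors, such as phosphatases and PIAS proteins, 12 were positive with a median of 0.18, and none had an unadjusted p under 0.05, the smallest being that of the adaptor Dok2 (1.15, SE 0.546). Of the 20, 1 was higher and 0 were lower without overlap, against 6.88% and 7.47% of all genes. The interferon-induced Usp18, which blocks the type I interferon receptor, had 2.47 to 11.2 CPM in TKO and 0.295 to 2.74 CPM in δKO, with a log2FC of 2.69 (SE 1.18, unadjusted p = 0.0419, adjusted p = 0.478, edgeR's QL test), and of 2.30 (unadjusted p = 0.0888) without δKO replicate 1. Socs7 was at 55.2 to 127 CPM in δKO and 35.7 to 41.8 CPM in WT, without overlap, at a log2FC of 1.22 (SE 0.420, adjusted p = 0.699), and of 0.89 (SE 0.408, unadjusted p = 0.0505) without δKO replicate 1, all from edgeR's QL test.

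Of 21 genes that act next to KIT, such as adaptors and SRC family kinases, 13 were positive in TKO against WT with a median of 0.11. The kinase Fes was the only one with an unadjusted p under 0.05, at −0.93 (SE 0.405, unadjusted p = 0.0405, adjusted p = 1.00, edgeR's QL test), and the adaptor Crk was higher without overlap at 0.55 (SE 0.363). In TKO against δKO, 3 of the 21 genes were higher without overlap, against 6.98% of all genes. At an unadjusted p under 0.05, 3 were higher, against 4.60%. The adaptor Gab1 (0.92) and the RAS exchange factor Sos1 (0.66) were higher by both measures. Neither was called by edgeR's QL test (adjusted p = 0.465 and 0.486). Without δKO replicate 1 they were at 1.03 and 0.81. Grb7 also had an unadjusted p under 0.05 there, but its level was 0 CPM in all δKO libraries and 0, 5.67 and 0.445 CPM in TKO replicates 1 to 3, so that it rests mainly on TKO replicate 2, with or without δKO replicate 1 (unadjusted p = 0.0217 and 0.0377, edgeR's QL test).

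STAT target genes outside the members had differences of both signs. Of 18 such genes 17 were tested, with 9 positive and 8 negative log2FC values in TKO against WT and a median of 0.037. Pim2, a survival kinase, was measured at 8.36, 14.4 and 19.1 CPM in WT, 25.1, 16.9 and 2.95 CPM in δKO and 44.4, 51.7 and 35.5 CPM in TKO. It was above both controls in every TKO library, at a log2FC of 1.66 against WT (SE 0.642, unadjusted p = 0.0247) and 1.55 against δKO (SE 0.641, unadjusted p = 0.0328), neither called by edgeR (adjusted p = 1.00 and 0.465). Cebpd, a STAT3 target of myeloid cells, went the other way, with 14.1, 11.5 and 12.1 CPM in WT, 0.199, 1.57 and 3.72 CPM in δKO and 0.708, 2.03 and 0.403 CPM in TKO. All 6 libraries that lacked p110δ were below all 3 WT libraries, at a log2FC of −3.59 in TKO (SE 1.08, unadjusted p = 0.00632, adjusted p = 1.00) and −2.78 in δKO (SE 1.04, unadjusted p = 0.0209, adjusted p = 0.699) in edgeR's QL test. DESeq2 on the WT and TKO libraries alone called both Pim2 (adjusted p = 0.000880) and Cebpd (adjusted p = 2.07e-06), 2 of 92 pathway genes against 3.08% of all genes. Bcl6 (−1.94) and Mcl1 (−0.56) were lower in TKO than in δKO without overlap, and Osm was lower in δKO than in WT at −2.30, none of them called. Without δKO replicate 1 these values were −2.19, −0.41 and −1.84, Pim2 was at 2.14 in TKO against δKO and Cebpd at −2.25 in δKO against WT.

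Of the sort markers other than Kit, Slamf1, the gene of CD150, had a log2FC of 1.17 in TKO against WT (SE 0.662) and Cd48 of −0.81 (SE 0.523), each without overlap, and Flt3, which encodes Flk2, of −1.05 (SE 0.738). Ly6a, which encodes Sca1, was at 24.5 to 37.3 CPM in TKO and 2.15 to 20.4 CPM in δKO, at a log2FC of 1.43 (SE 0.642, unadjusted p = 0.0460, adjusted p = 0.484, edgeR's QL test), and of 0.94 without δKO replicate 1. No sort marker was called, and their genes describe the gate as well as the genotype.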

How the data were processed

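Reads of 9 LT-HSC libraries were trimmed with Trim Galore 0.3.7, checked with FastQC 0.11.4 and aligned to mm10 with STAR 2.5.1b, per the labels and methods. The authors deposited raw counts per gene, as whole numbers, and a normalized signal, which is the count divided by 1 size factor per library and was used here only in an alternative. The annotation, the use of strand and how technical runs were joined are not given in the sources used here. Columns were mapped to genotypes by name. The members and lists were chosen with earlier results of these data known.

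Gene symbols and coordinates came from the mm10 annotation, which held 39106 of the 47643 identifiers by version and 47224 when the version was ignored. Genes were kept with edgeR's filterByExpr (count minimum 10), so that 18205 genes were tested. Scaling used TMM factors, and testing was done with the quasi-likelihood (QL) functions of edgeR 4.0.16 in R 4.3.3, in 1 model of the 9 libraries with a mean for each genotype (6 residual degrees of freedom). Benjamini-Hochberg adjustment covered all tested genes. A call needed an adjusted p under 0.05 together with a change of over 2-fold. The pipeline was tested on simulated data. Lists were described by counts and medians and not tested. All 10 members were named, and up to 3 genes of each pathway list, those of smallest unadjusted p in a comparison, besides the genes of the sort markers.

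Alternatives were other scalings, filters and covariates, robust estimation, the replicate number as a block, DESeq2 1.42.0, limma 3.58.1 on log2 of the deposited normalized signal plus 1, and each library left out. voom with sample quality weights was added after the data were examined.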

Additional observations from a re-analysis of the deposited data

How the results depend on the processing

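Of 30 results (10 members in 3 comparisons), 15 kept their sign under all 21 alternatives, among them Kit, Stat5a, Stat5b, Socs2, Socs3, Cish, Sh2b3 and Cbl in TKO against WT. Of 630 log2FC values, 54 changed sign. The cause was not tested except where a library was left out.

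The number of members called in TKO against WT was 0 with edgeR and 2 with DESeq2 on the groups compared. For the pathway lists in TKO against WT it was 0 of 92 with edgeR, 1 of 94 (Cebpd) with DESeq2 on all 9 libraries, against 0.657% of all genes, and 2 of 92 (Cebpd and Pim2) with DESeq2 on the groups compared, against 3.08%. In TKO against δKO it was 1 of 91 (Il3ra) with DESeq2 on all 9 libraries, against 3.1% of all genes.

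Several fits turned the sign of values, among them Stat5a (0.28) and Socs3 (0.37) in δKO against WT. With at least 10 counts in every library, Jak2 in TKO against WT was −0.0042, Kit and Stat3 in TKO against δKO were 0.018 and 0.0022 and Stat3 in δKO against WT was −0.051. With a covariate for genes detected per library, Jak2 in TKO against WT was −0.099, Kit and Stat3 in TKO against δKO were 0.12 and 0.21, and Stat3, Stat5a, Socs3 and Cbl in δKO against WT were −0.36, −0.082, −0.58 and −0.034. With upper-quartile factors, which moved the median of all genes from 0.046 to −0.10 in δKO against WT and from −0.055 to 0.083 in TKO against δKO, Jak2 in TKO against WT was −0.0092, Kit and Stat3 in TKO against δKO were 0.10 and 0.083 and Stat3 and Cbl in δKO against WT were −0.14 and −0.029. With voom, Stat3 was 0.012 in TKO against WT, 0.23 in TKO against δKO and −0.22 in δKO against WT, Kit in TKO against δKO was 0.28 and Stat5a and Socs3 in δKO against WT were −0.11 and −0.16.

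With single libraries left out, values in TKO against WT ranged from 1.48 to 2.12 for Socs2, 1.65 to 2.50 for Cish, 0.57 to 1.68 for Socs3, 0.15 to 0.35 for Kit, −0.10 to 0.12 for Jak2, −0.16 to 0.023 for Stat3, 0.075 to 0.47 for Stat5a, 0.18 to 0.48 for Stat5b, −0.31 to −0.045 for Sh2b3 and −0.49 to −0.24 for Cbl. In TKO against δKO it ranged from −0.30 to 0.34 for Kit, −0.73 to −0.17 for Jak2, −0.68 to −0.32 for Cbl, 0.21 to 2.11 for Socs3, −0.34 to 0.23 for Stat3, −0.20 to 0.59 for Stat5a, −0.028 to 0.31 for Stat5b, −0.22 to 2.11 for Socs2, −0.30 to 1.34 for Cish and 0.15 to 0.54 for Sh2b3. In δKO against WT it ranged from −0.066 to 0.58 for Kit, 0.17 to 0.74 for Jak2, −0.28 to 0.30 for Stat3, −0.24 to 0.48 for Stat5a, −0.010 to 0.33 for Stat5b, −0.30 to 2.02 for Socs2, −1.08 to 1.02 for Socs3, 0.62 to 2.43 for Cish, −0.72 to −0.33 for Sh2b3 and −0.068 to 0.29 for Cbl.

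Libraries of the same replicate number correlated by −0.0929 to 0.108 in their deviations from the genotype means. All other pairs from different genotypes correlated by −0.129 to 0.171. With 3 libraries per genotype these values cannot settle whether the numbers pair the libraries. With the replicate number as a block, the number of members called remained 0 in each comparison. Jak2 in TKO against WT was then −0.021, Stat5a, Socs2 and Cish in TKO against δKO were −0.037, −0.15 and −0.62 and Cbl in δKO against WT was −0.088, while Socs2 and Cish in TKO against WT were 1.78 and 1.95.

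With 3 libraries per genotype, differences of the inducible inhibitors had standard errors of 0.732 to 0.788, on a log2 scale where a 2-fold difference is 1. The power to detect such a difference was not computed.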
